A study of Mus musculus with 26 samples.

Results

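The genes described here are 10 targets of the transcription factor p53 in mouse liver, namely Cdkn1a, Phlda3, Mdm2, Ccng1, Bax, Eda2r, Gdf15, Trp53inp1, Zmat3 and Btg2. They were found in the table of estimated counts by Ensembl ID, and all 10 were present among its 55642 IDs. All 10 passed the filter on low counts that left 17104 genes for testing. The RNA came from whole liver, and 26 libraries were sequenced. Mice with a homozygous Mtarc1 knockout (8 libraries), mice with a heterozygous Mtarc1 knockout (7) and wildtype mice (6) had been fed CDAHFD, a high-fat diet of defined L-amino acids without choline, for 2 weeks before the RNA was taken. Wildtype mice on control chow gave the other 5 libraries. No knockout liver on chow is among the groups, so effects of genotype that exist on chow and effects on the response to CDAHFD cannot be told apart. The sources used here do not give age, sex, strain, the removed part of Mtarc1 or the tissue in which it was removed. Mtarc1 encodes an amidoxime-reducing enzyme of the outer mitochondrial membrane.

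p53, encoded by Trp53 in the mouse, is held at a low level by the ubiquitin ligase Mdm2, and is released when DNA is damaged, when ribosome assembly fails or when a cell is otherwise stressed. It then binds DNA at paired decamers and switches on genes that stop the cell cycle, repair damage, restrain growth signals or start cell death, among them Mdm2 itself, which closes a negative feedback loop. In liver, p53 targets such as Cdkn1a are induced after toxic injury, partial hepatectomy and fat overload, and several of them, Gdf15, Btg2 and Cdkn1a included, also answer to p53-independent stress signals.

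Depth was 19.73 to 29.91 M (mega) estimated counts per library, with a mean of 24.79 M (SD 2.652, n = 26). Levels below are CPM, counts per M (mega) counts, on library sizes scaled by TMM, a method that aligns libraries on most of their genes, and each is a level of 1 gene across libraries, not a comparison of genes. Mtarc1 followed the labels: it was at 33.4 to 65.3 CPM in homozygous, 112 to 208 CPM in heterozygous, 193 to 291 CPM in wildtype CDAHFD and 264 to 361 CPM in wildtype chow livers. The 12 genes of a macrophage marker list summed to 411.7 to 679.2 CPM in homozygous, 523.4 to 786.7 CPM in heterozygous, 535.5 to 992.6 CPM in wildtype CDAHFD and 266.4 to 459.8 CPM in wildtype chow livers. Albumin and 9 other hepatocyte markers summed to 75290 to 116300, 66900 to 102100, 67570 to 107700 and 109500 to 136600 CPM in the same order of groups, and none of them was at 0 throughout a group. In wildtype CDAHFD against chow, 11 of 12 macrophage, 5 of 10 stellate and myofibroblast, 3 of 4 neutrophil, 2 of 10 lymphocyte and 1 of 6 bile duct markers rose (the neutrophil gene Ly6g, named after its values were seen, was at 0 in every chow library), 0 of 8 endothelial markers changed and 7 of 10 hepatocyte markers fell (edgeR adjusted p under 0.05). Among all tested genes 27.1% were called in either direction and 14.8% rose. The lymphocyte and bile duct counts are near the share that rose. In whole liver, a change in the number of cells of a type and a change in RNA per cell cannot be told apart. The part of these marker changes in the results on p53 targets was not tested. Library names fall into 2 number series, 1 of 9 libraries (2 homozygous, 3 heterozygous, 3 wildtype CDAHFD, 1 wildtype chow) and 1 of 17 (6, 4, 3 and 4 libraries in that order). The series are not labelled as batches, and they bear on several results below.

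Promoters of 8 of the 10 genes were found in a RefSeq promoter table of build GRCm38.p6, which holds the 250 bases before and 50 bases after each gene start; some genes have more than 1 start, and 10 promoters stood for the 8 genes. They were searched for the p53 decamer, which reads the same on both strands, and for pairs of decamers 0 or 1 base apart. A pair with at most 1 mismatch was present in 58 of 32851 promoters (0.177%), among them the upstream of the 2 starts of Cdkn1a, which lie 2790 bases apart, and the promoters of Ccng1 and Bax. An exact single decamer was present in 8.36% of all promoters, and among the p53 targets in those of Cdkn1a, Ccng1, Bax and Mdm2. The CRE motif TGACGTCA, recognised by factors of the CREB and ATF families, was present in 1.79% of all promoters and in that of Btg2. The bases before the start are shown for these 4 genes because 3 of them hold the paired decamers and Btg2 holds the motif of another stress pathway; capitals mark the matched site. The promoter of the downstream Cdkn1a start held 0 exact decamers, and its best pair had 5 mismatches. The Cdkn1a stretch shown is chr17:29090729-29090978 on the plus strand, with its site at chr17:29090928-29090947, beginning 51 bases before the upstream start. The other 3 lie on the minus strand: Ccng1 at chr11:40755287-40755536 (site chr11:40755462-40755481, 195 bases before the start), Bax at chr7:45466899-45467148 (site chr7:45467090-45467110, 212 bases before) and Btg2 at chr1:134079156-134079405 (site chr1:134079314-134079321, 166 bases before).
Cdkn1a: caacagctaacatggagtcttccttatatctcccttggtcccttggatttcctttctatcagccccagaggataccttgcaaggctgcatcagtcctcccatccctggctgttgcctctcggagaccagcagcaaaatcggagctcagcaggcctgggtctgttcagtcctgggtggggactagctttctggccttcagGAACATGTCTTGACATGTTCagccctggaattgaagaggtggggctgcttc
Ccng1: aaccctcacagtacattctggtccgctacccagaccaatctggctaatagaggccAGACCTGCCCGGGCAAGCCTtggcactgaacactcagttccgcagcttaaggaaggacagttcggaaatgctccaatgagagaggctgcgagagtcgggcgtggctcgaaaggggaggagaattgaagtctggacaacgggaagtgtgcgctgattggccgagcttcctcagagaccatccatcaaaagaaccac
Bax: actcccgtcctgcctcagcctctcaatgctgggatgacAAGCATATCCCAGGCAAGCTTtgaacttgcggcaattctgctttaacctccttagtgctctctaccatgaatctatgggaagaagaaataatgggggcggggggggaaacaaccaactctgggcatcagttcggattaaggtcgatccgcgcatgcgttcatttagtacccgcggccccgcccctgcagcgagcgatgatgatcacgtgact
Btg2: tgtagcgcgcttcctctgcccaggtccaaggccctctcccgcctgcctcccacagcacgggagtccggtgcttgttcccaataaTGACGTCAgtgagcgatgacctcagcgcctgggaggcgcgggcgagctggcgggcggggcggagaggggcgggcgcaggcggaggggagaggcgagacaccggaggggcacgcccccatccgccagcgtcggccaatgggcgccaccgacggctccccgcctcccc
A match describes the letters of the sequence and does not show binding, and binding was not measured in these livers. Eda2r, Gdf15 and Phlda3 promoters held no exact decamer in this window, and Trp53inp1 and Zmat3 are named only.

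On the diet, wildtype livers held more transcript of the cell-cycle inhibitor gene Cdkn1a, the Akt repressor gene Phlda3, the death receptor gene Eda2r, the antiproliferative gene Btg2 and, by a small margin, the cyclin gene Ccng1. In all, 5 of the 10 p53 targets rose and 0 fell, against a background of 27.1% of 17104 genes changed in either direction and 14.8% raised (edgeR quasi-likelihood test, Benjamini-Hochberg adjusted p under 0.05). The remaining 5 did not pass. Of the 10 fold changes, 9 were above 0, and their median was 0.61 on the log2 scale against -0.01 over all genes tested. The rise was large for 4 genes, from 2.503-fold for Btg2 to 6.76-fold for Eda2r, and was 1.27-fold for Ccng1. The groups did not overlap for Phlda3, Eda2r and Btg2, a pattern that 7.95% of all tested genes showed in the upward direction. Every homozygous liver also lay above every chow liver for Phlda3 and Btg2 (4.61% of tested genes), and every heterozygous liver did so for those 2, Cdkn1a, Ccng1 and Eda2r (7.58%).

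**Figure D1:**
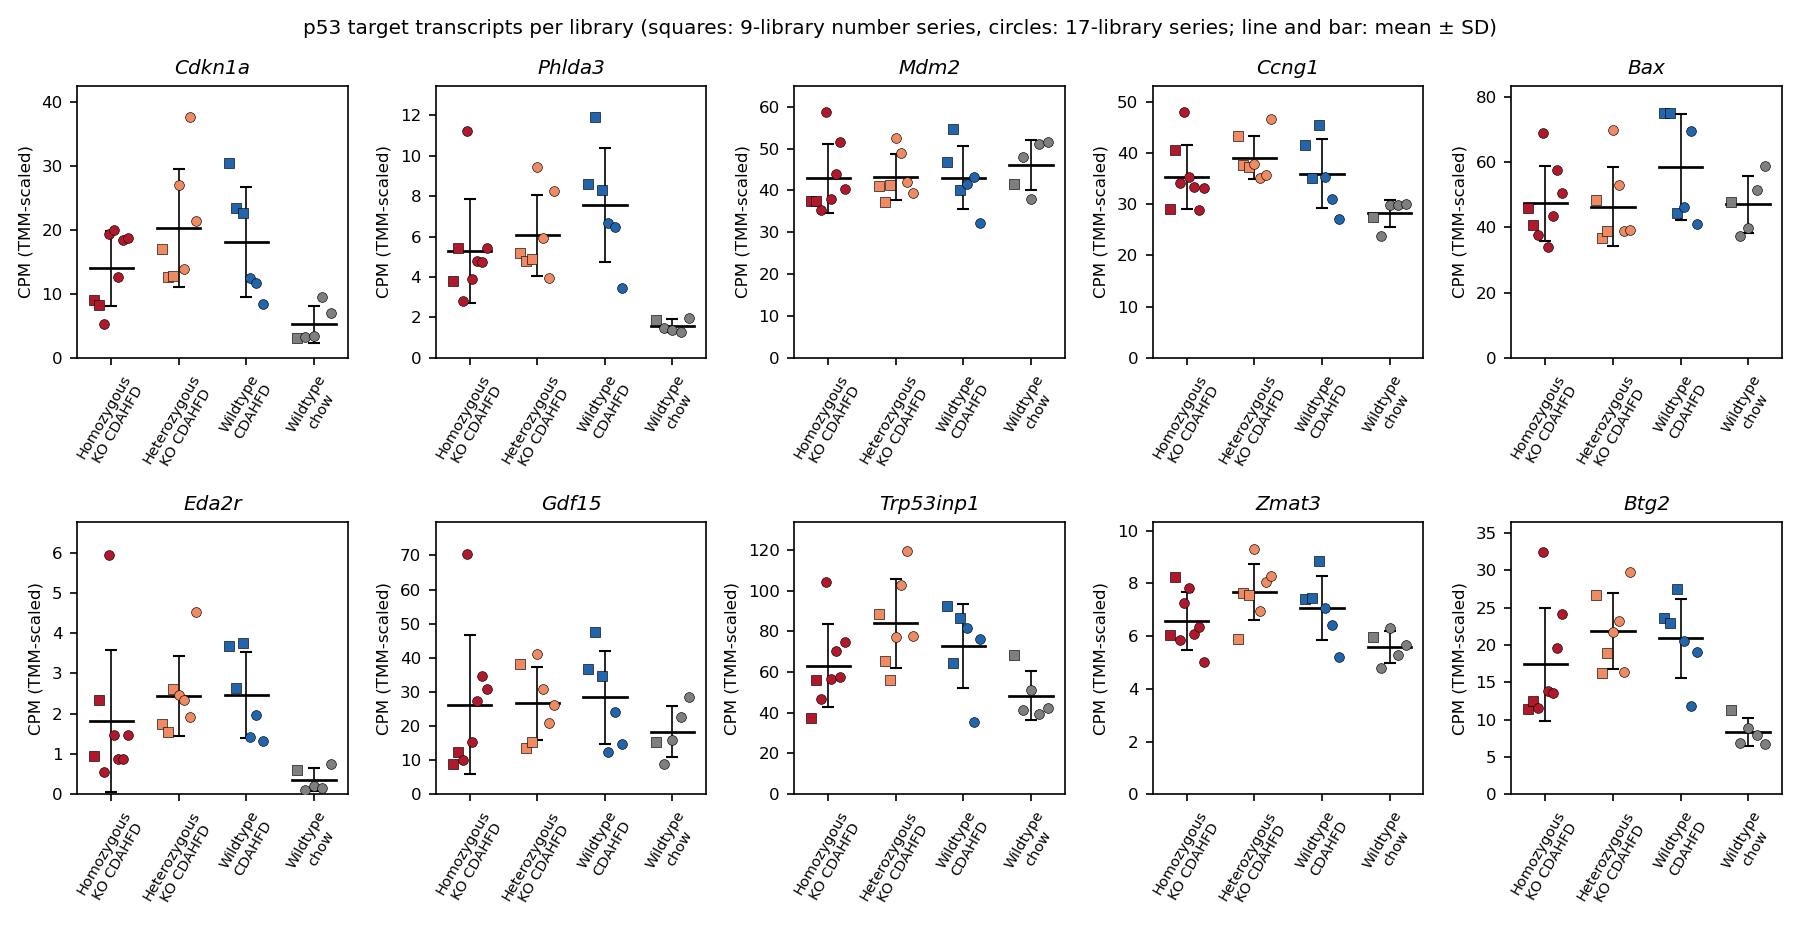
Level of each of the 10 p53 targets (CPM on TMM-scaled library sizes, axis from 0) in every library, by group; squares are the 9-library number series, circles the 17-library series, and lines with bars are means with SD. Phlda3, Eda2r and Btg2 of wildtype CDAHFD livers lie above all wildtype chow livers, Mdm2 overlaps in all 4 groups, and the highest homozygous library for Phlda3, Eda2r and Gdf15 lies apart from the other 7.

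Cdkn1a encodes p21, which binds and blocks cyclin-dependent kinases and is the best known arrest gene of p53. Its level ran from 5.29 to 19.98 CPM in homozygous livers (median 15.5), from 12.7 to 37.6 in heterozygous livers (17.1) and from 8.35 to 30.5 in wildtype CDAHFD livers (17.5). The wildtype chow livers had 3.08, 3.17, 3.42, 6.97 and 9.55 CPM. The highest chow liver reached into the ranges of the homozygous and wildtype CDAHFD groups, no heterozygous liver overlapped with chow, and 5 of the 6 wildtype CDAHFD livers lay above every chow liver. Means were 13.98 ± 5.88 CPM in homozygous (SD, n = 8), 20.3 ± 9.23 in heterozygous (n = 7), 18.2 ± 8.61 in wildtype CDAHFD (n = 6) and 5.24 ± 2.91 in wildtype chow livers (n = 5). Against chow, wildtype CDAHFD livers rose by 1.80 ± 0.42 on the log2 scale (SE, edgeR adjusted p = 0.0023), or 3.47-fold. An antisense gene overlaps Cdkn1a exons in the GRCm38 annotation but held 0.341 CPM on average; the sources used here do not say whether reads were counted by strand.

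Btg2 slows division and recruits the deadenylase complex that shortens messenger RNA tails. It had 11.5 to 32.4 CPM in homozygous (median 13.7), 16.3 to 29.7 in heterozygous (21.7) and 11.8 to 27.5 in wildtype CDAHFD livers (21.7). The wildtype chow livers had 6.76, 6.87, 7.94, 8.87 and 11.2 CPM, below every one of the 21 CDAHFD livers. The rise in wildtype livers was 1.32 ± 0.26 on the log2 scale (edgeR adjusted p = 0.000422). Ccng1, encoding cyclin G1, which steers a phosphatase to Mdm2, spanned 28.9 to 48.0 CPM in homozygous, 35.2 to 46.7 in heterozygous and 27.2 to 45.6 in wildtype CDAHFD livers. Chow livers had 23.9, 27.6, 29.8, 30.0 and 30.0 CPM, so that 5 of 6 wildtype CDAHFD livers lay above all of them. Its rise of 0.35 ± 0.13 (edgeR adjusted p = 0.0406) was lost with voom (adjusted p = 0.0525) and in 7 of 11 fits that left out 1 library of the comparison.

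Among genes of cell death and survival signalling, Phlda3 and Eda2r rose and Bax did not pass. Phlda3, whose product competes with Akt for membrane lipid and so damps survival signals, had 2.83 to 11.2 CPM in homozygous (median 4.75), 3.96 to 9.42 in heterozygous (5.16) and 3.45 to 11.9 in wildtype CDAHFD livers (7.47). Chow livers had 1.26, 1.39, 1.46, 1.89 and 1.95 CPM. The lowest of all 21 CDAHFD livers was above the highest chow liver, and wildtype livers rose by 2.25 ± 0.33 on the log2 scale (edgeR adjusted p = 1.48e-05). Eda2r, a receptor of the tumour necrosis factor family that binds ectodysplasin A2, had 0.547 to 5.95 CPM in homozygous (median 1.21), 1.54 to 4.52 in heterozygous (2.34) and 1.32 to 3.75 in wildtype CDAHFD livers (2.30). In chow livers it was scarce, at 0.0974, 0.151, 0.214, 0.598 and 0.739 CPM, which came from 2 to 14 estimated counts per library. Its rise of 2.76 ± 0.58 (edgeR adjusted p = 0.000861) rests on those low chow counts. Bax, which opens the outer mitochondrial membrane in apoptosis, had 33.97 to 69.1 CPM in homozygous, 36.8 to 70.0 in heterozygous, 41.2 to 75.2 in wildtype CDAHFD and 37.5 to 59.0 CPM in wildtype chow livers. These ranges overlap, and the wildtype diet difference of 0.31 ± 0.20 did not pass (edgeR adjusted p = 0.256).

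Mdm2, the ligase that marks p53 for degradation and is itself induced by it, overlapped between all 4 groups. It had 35.3 to 58.8 CPM in homozygous, 37.2 to 52.6 in heterozygous, 32.1 to 54.6 in wildtype CDAHFD and 37.9 to 51.5 CPM in wildtype chow livers. The diet difference in wildtype livers was -0.10 ± 0.13, with an interval of -0.36 to 0.17 (2 SE either side; edgeR adjusted p = 0.636), and it was 0.14 with raw totals as library sizes. The wildtype mean therefore differed from that of chow by less than the spread between libraries in either scaling. Trp53 itself was at 30.1 to 41.1, 27.1 to 44.2, 27.9 to 44.7 and 31.2 to 42.3 CPM in homozygous, heterozygous, wildtype CDAHFD and wildtype chow livers, with a wildtype diet difference of -0.07 ± 0.13 (edgeR adjusted p = 0.742). Mdm4, the partner of Mdm2 in restraining p53, gave -0.25 ± 0.15 (edgeR adjusted p = 0.238). Transcript levels do not report the amount or activity of the p53 protein, which was not measured.

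Gdf15 was above the chow mean in 4 of 6 wildtype CDAHFD livers and Trp53inp1 and Zmat3 in 5 of 6, and none of the 3 passed. Gdf15, a secreted stress hormone that acts on the hindbrain to lower food intake, had 8.89 to 70.5 CPM in homozygous (median 21.4), 13.7 to 41.2 in heterozygous (26.3) and 12.4 to 47.4 in wildtype CDAHFD livers (29.5). Chow livers had 8.96, 15.4, 15.8, 22.6 and 28.6 CPM, and all 4 groups overlap. The diet difference in wildtype livers was 0.64 ± 0.47 (edgeR adjusted p = 0.343), with an interval of -0.31 to 1.59. Trp53inp1, a stress protein of the nucleus and of autophagosomes, spanned 37.5 to 104 CPM in homozygous, 56.1 to 119 in heterozygous, 35.5 to 92.4 in wildtype CDAHFD and 39.2 to 68.2 CPM in wildtype chow livers (0.59 ± 0.24 in wildtype, edgeR adjusted p = 0.0687). Zmat3, a zinc finger protein that binds RNA and alters splicing, had 5.01 to 8.23, 5.91 to 9.32, 5.22 to 8.85 and 4.77 to 6.31 CPM in the same order (0.34 ± 0.14, edgeR adjusted p = 0.0729). With raw totals in place of TMM scaling Trp53inp1 and Zmat3 passed (edgeR adjusted p = 0.0139 and 0.00643), and that scaling moved the median of all genes to 0.22 on the log2 scale.

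The knockout livers on the diet were also set against wildtype chow, a contrast in which diet and genotype both differ. These comparisons share the chow libraries with the wildtype one and are not independent of it. In homozygous livers 4 of 10 targets rose (Cdkn1a, Phlda3, Eda2r and Btg2), against 23.1% of all genes called and 12.3% raised. In heterozygous livers 7 of 10 rose, those 4 with Ccng1, Trp53inp1 and Zmat3, against 37.2% called and 19.3% raised. For Cdkn1a the log2 fold change over chow was 1.42 ± 0.40 in homozygous, 1.96 ± 0.41 in heterozygous and 1.80 ± 0.42 in wildtype CDAHFD livers. For Phlda3 it was 1.73 ± 0.31, 1.93 ± 0.32 and 2.25 ± 0.33 in that order, and for Eda2r 2.33 ± 0.57, 2.75 ± 0.57 and 2.76 ± 0.58. Ccng1 narrowly missed the threshold in homozygous livers (0.33 ± 0.12, edgeR adjusted p = 0.0501) and passed in heterozygous livers (0.47 ± 0.12, edgeR adjusted p = 0.00433), and the direct test between those genotypes is given below.

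Between genotypes on the diet no p53 target passed. Homozygous against wildtype CDAHFD gave 0 of 10 called (background 0.00585%, a single gene, Mtarc1), with 0 members at an unadjusted p under 0.05 in edgeR (9.97% of all genes), 0 called with DESeq2 and 0 with voom, where 1 member had an unadjusted p under 0.05. All 10 fold changes were below 0, with a median of -0.24 against 0.01 over all genes; with DESeq2-type size factors Mdm2 was above 0 and the other 9 were below it. Cell type markers also lay to one side of 0 in this comparison, with 0 called: 12 of 12 macrophage markers were below 0 (median -0.51, 8 at an unadjusted p under 0.05 in edgeR), as were 10 of 10 stellate and myofibroblast markers (median -0.39, 8 at that p), and 10 of 10 hepatocyte markers were above 0 (median 0.17, 0 at that p). Their part in the values of the p53 targets was not tested. The largest fold change of a target was that of Phlda3, -0.52 ± 0.26 (unadjusted p = 0.0534, edgeR adjusted p = 0.512), with an interval of -1.03 to -0.01. Bax gave -0.30 ± 0.17 (edgeR adjusted p = 0.595), Btg2 -0.27 ± 0.22 (0.755), Cdkn1a -0.38 ± 0.34 (0.783) and Eda2r -0.43 ± 0.42 (0.807). The interval for Cdkn1a, -1.06 to 0.31, includes 0. Mdm2 (-0.01 ± 0.12) and Ccng1 (-0.02 ± 0.11) had the narrowest intervals, -0.24 to 0.23 and -0.25 to 0.20.

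**Figure D2:**
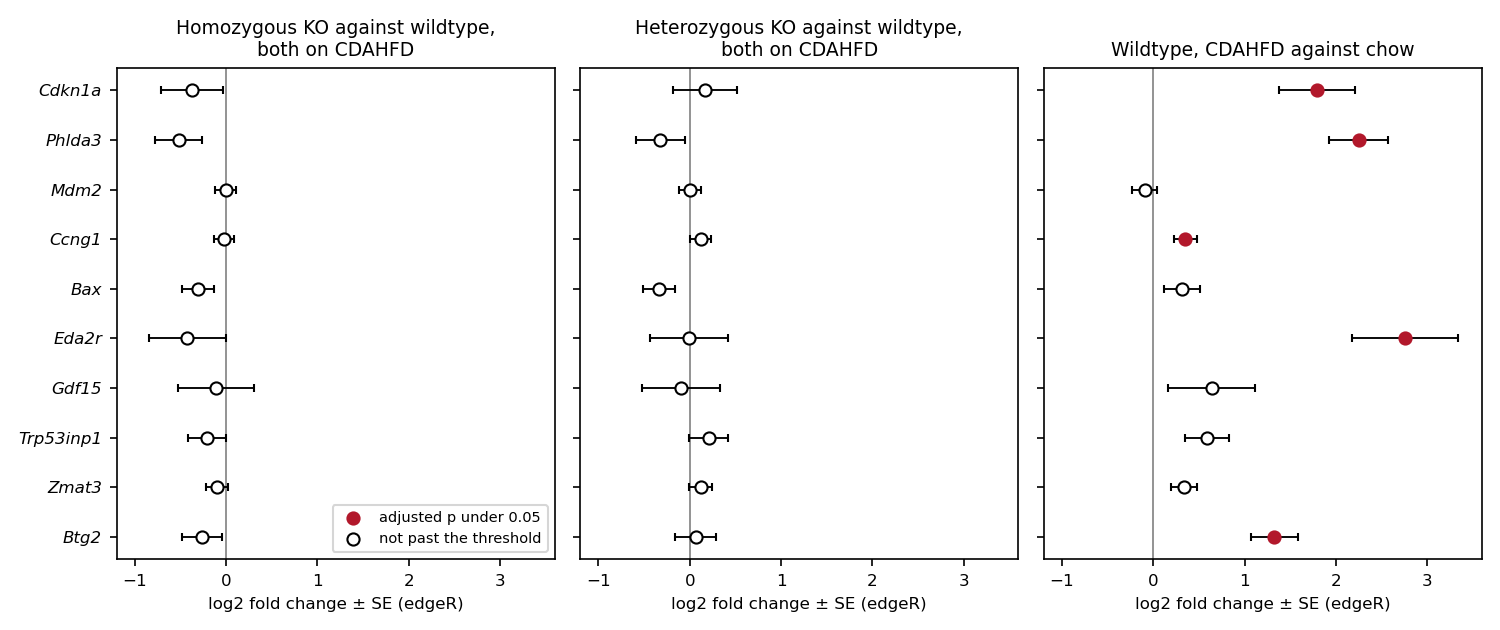
Log2 fold change with its SE (edgeR, all 4 groups in 1 fit) of each p53 target for homozygous against wildtype CDAHFD, heterozygous against wildtype CDAHFD and wildtype CDAHFD against chow; filled points have an adjusted p under 0.05. All 10 estimates of the homozygous comparison lie at or left of 0 with none filled, and 5 of 10 are filled in the diet comparison.

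Heterozygous against wildtype CDAHFD also gave 0 of 10 called (background 0%), with 0 members at an unadjusted p under 0.05 in edgeR (8.44% of all genes) and 0 called with DESeq2 or voom. The fold changes were split, 6 above and 4 below 0 (5 and 5 with raw totals as library sizes), with a median of 0.03. The lowest were Bax at -0.34 ± 0.18 (edgeR adjusted p = 0.569) and Phlda3 at -0.32 ± 0.26 (0.642), and the highest were Trp53inp1 at 0.21 ± 0.22 (0.714) and Cdkn1a at 0.16 ± 0.35 (0.869). Homozygous against heterozygous livers gave 0 of 10 called (background 0.00585%), and 1 member at an unadjusted p under 0.05 (7.13% of all genes), Trp53inp1 at -0.41 ± 0.20 (edgeR adjusted p = 0.7). In that contrast DESeq2 and voom called 0 members and each had 1 at an unadjusted p under 0.05. Ccng1 differed by -0.15 ± 0.11 there (edgeR adjusted p = 0.752). A trend per Mtarc1 copy lost over the 21 CDAHFD livers, fitted to 16730 genes, called 0 of 10 members, had 0 at an unadjusted p under 0.05 and called 1 gene in all, Mtarc1. Its steepest slope among the targets was that of Phlda3, -0.25 ± 0.13 log2 per copy lost (edgeR adjusted p = 0.565).

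The number series of the library divided the wildtype CDAHFD livers for several of these genes. In the 9-library series the 3 wildtype CDAHFD livers had 22.6, 23.4 and 30.5 CPM of Cdkn1a, and in the 17-library series 8.35, 11.7 and 12.4 CPM, with no overlap. Mean Cdkn1a was 8.69 CPM in homozygous, 14.2 in heterozygous and 25.5 in wildtype CDAHFD livers of the smaller series, and 15.7, 24.9 and 10.8 CPM in the larger. Wildtype livers thus had the highest Cdkn1a mean of the 3 genotypes in 1 series and the lowest in the other. The same held for Gdf15, with means of 10.7, 22.3 and 39.6 CPM in the smaller series and 31.5, 29.8 and 17.1 CPM in the larger. Phlda3 averaged 4.62, 4.94 and 9.60 CPM in the 9-library series, and 5.49, 6.89 and 5.52 CPM in the 17-library series. Marker sums of the wildtype CDAHFD livers were divided by series as well. Hepatocyte markers summed to 67570 to 85600 CPM in the smaller series and 86110 to 107700 CPM in the larger, and stellate and myofibroblast markers to 514 to 901.2 and 467.8 to 510.6 CPM. Lymphocyte markers summed to 38.8 to 56.5 CPM in the smaller series and 26.7 to 37.5 CPM in the larger, and neutrophil markers to 11.2 to 23.8 and 6.703 to 10.8 CPM. The series did not overlap for these 4 lists and overlapped for macrophage, endothelial and bile duct markers. The part of the marker lists in the division of the p53 targets was not tested. The share of all tested genes without overlap between the 3 and 3 wildtype CDAHFD livers was not computed, so the divisions given here, that of Cdkn1a included, have no background.

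A fit with the interaction of genotype and number series, chosen after these values were seen, put numbers on this. Within the 9-library series all 10 targets were below 0 for homozygous against wildtype CDAHFD and all 10 for heterozygous against wildtype CDAHFD. Within the 17-library series 9 of 10 were above 0 in each. For Cdkn1a homozygous livers differed from wildtype by -1.54 ± 0.43 among the 9 libraries and by 0.55 ± 0.33 among the 17, and heterozygous livers by -0.84 ± 0.37 and 1.204 ± 0.352. The series differed at an unadjusted p under 0.05 for 4 of 10 targets in the homozygous comparison, Cdkn1a (a difference between series of -2.09 ± 0.54), Gdf15 (-2.76 ± 0.79), Btg2 (-1.198 ± 0.463) and Mdm2 (-0.52 ± 0.24), against 4.96% of 16730 genes. In the heterozygous comparison it did so for 4 of 10, Cdkn1a (-2.05 ± 0.51), Phlda3 (-1.26 ± 0.53), Gdf15 (-1.62 ± 0.72) and Zmat3 (-0.54 ± 0.25), against 9.58% of genes. After adjustment over all genes none passed (edgeR adjusted p = 0.944 for each of the 4 in the homozygous comparison and 0.493 to 0.51 in the heterozygous comparison), and 0 genes were called. The wildtype CDAHFD libraries enter both genotype comparisons, so the 2 sets of values are not independent.

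**Figure D3:**
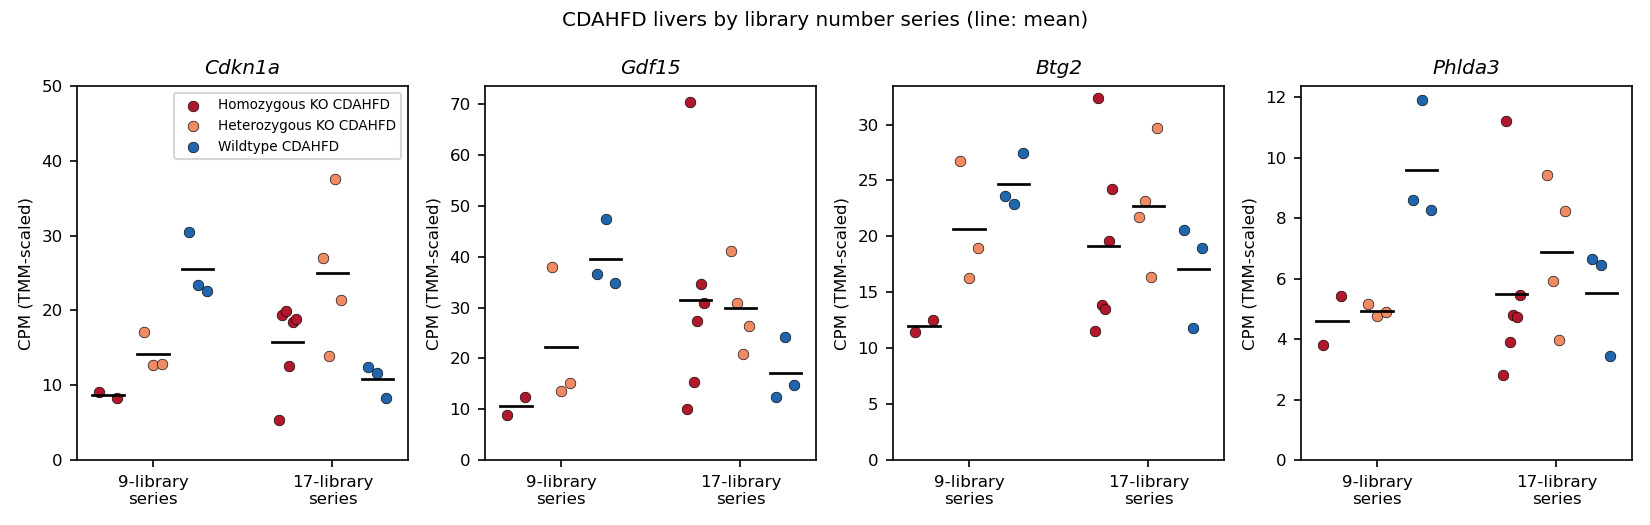
Cdkn1a, Gdf15, Btg2 and Phlda3 (CPM on TMM-scaled library sizes, axes from 0) in homozygous, heterozygous and wildtype CDAHFD livers, separately for the 9-library and the 17-library number series; points are libraries and lines are means. Wildtype livers have the highest mean in the 9-library series in all 4 panels, and the lowest mean in the 17-library series for Cdkn1a, Gdf15 and Btg2.

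The diet comparison moved with the series as well. The 9-library series holds 1 wildtype chow liver, at 3.08 CPM of Cdkn1a, so no spread of chow livers can be had there. With the 17-library series alone (3 wildtype CDAHFD and 4 chow livers), 2 of 10 targets were called, Phlda3 (1.87 ± 0.41, edgeR adjusted p = 0.00654) and Btg2 (1.17 ± 0.31, 0.0189). Over all genes the calls also went down, from 4630 with all libraries to 2264 in that series alone. Cdkn1a was then at 0.91 ± 0.45 (edgeR adjusted p = 0.194; 0.000147 to 0.194 over all alternatives except single libraries left out), and Eda2r at 2.38 ± 0.79 (0.0538). With the series as a covariate in the fit over all 26 libraries 4 targets were called and Ccng1 was not (edgeR adjusted p = 0.0793). That fit called 4265 genes in all.

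Most of the targets followed Cdkn1a over all CDAHFD livers, while within the number series the count that passed was smaller and differed between the coefficients. Over the 21 CDAHFD libraries, log2 CPM of 7 of the other 9 targets was related to that of Cdkn1a by Pearson's r, and of 8 by Spearman's rho, at a Benjamini-Hochberg adjusted p under 0.05 (permutation test, 2-sided, 9 relations). The share of all tested genes related to Cdkn1a in this way was not computed, so these counts have no background beside them. Gdf15 was closest, with Pearson's r = 0.676 (permutation adjusted p = 0.00738) and Spearman's rho = 0.712 (permutation adjusted p = 0.00378). Trp53inp1 (r = 0.605, rho = 0.586), Btg2 (r = 0.584, rho = 0.619), Phlda3 (r = 0.562, rho = 0.532), Mdm2 (r = 0.556, rho = 0.544), Eda2r (r = 0.553, rho = 0.586) and Zmat3 (r = 0.498, rho = 0.534) had permutation adjusted p-values for r of 0.0136 to 0.0284. Ccng1 passed by rho alone (r = 0.413, permutation adjusted p = 0.0713; rho = 0.461, permutation adjusted p = 0.0413). Bax passed by neither (r = 0.377, permutation adjusted p = 0.0923; rho = 0.329, permutation adjusted p = 0.145). Without the 2 libraries farthest from the median of Cdkn1a, homozygous 3 and heterozygous 6, r ran from 0.414 to 0.736. Within the 8 CDAHFD livers of the 9-library series 4 of 9 relations passed by r, which ran from 0.179 to 0.903, and 0 by rho, from -0.19 to 0.857 (exact permutation test). Within the 13 of the 17-library series 0 of 9 passed by r, which ran from 0.161 to 0.653, and 1 by rho, that of Zmat3 (rho = 0.753, permutation adjusted p = 0.034). Without the 2 farthest libraries, r ran from 0.511 to 0.953 in the smaller series and from -0.206 to 0.543 in the larger, where Bax and Phlda3 (-0.0492) were below 0.

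**Figure D4:**
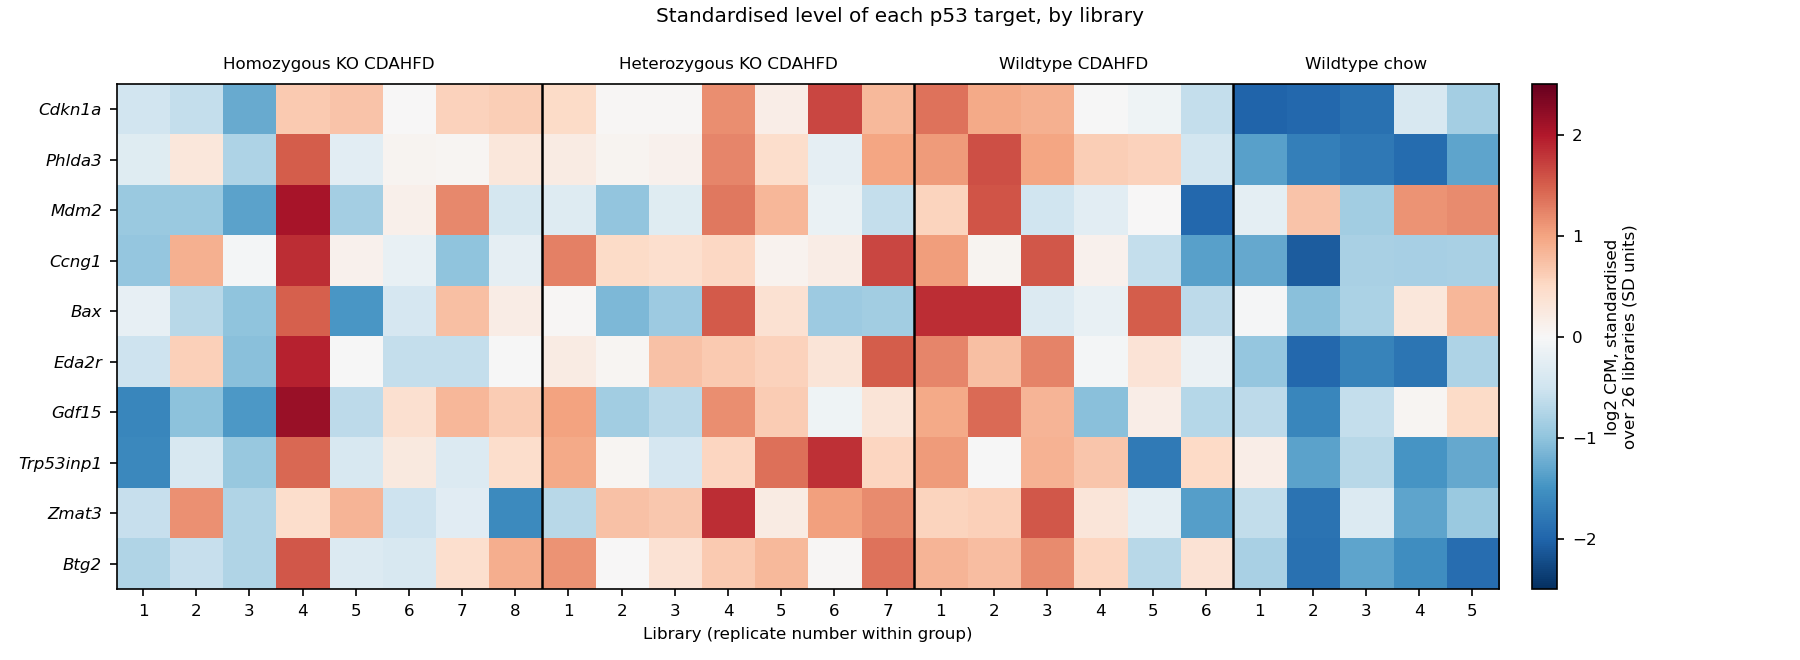
Standardised log2 CPM (SD units over 26 libraries, colour scale from blue, low, to red, high) of each p53 target in each library, with groups separated by vertical lines. Homozygous library 4 is red for all 10 targets, wildtype CDAHFD libraries 1 to 3 are mostly red, and wildtype chow libraries are blue for Phlda3, Eda2r and Btg2.

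Single livers stood out across the list. Homozygous library 4 was the highest of its 8 for 8 of the 10 targets, 80%, while it was highest for 13.5% of all tested genes; it was picked out after its values were seen. It had 70.5 CPM of Gdf15, 11.2 of Phlda3, 32.4 of Btg2 and 104 of Trp53inp1. The same library was highest for 9 of 12 genes of the integrated stress response (75%), 10 of 19 immediate early and injury genes (52.6%), 8 of 16 cell division genes (50%), 18 of 40 other reported p53 targets (45%), 4 of 11 genes that act on p53 (36.4%) and 1 of 12 BCL2 family genes (8.33%). Its macrophage markers summed to 411.7 CPM, the lowest of the 8, and its hepatocyte markers to 75290 CPM, also the lowest of the 8. Without it the homozygous comparison with wildtype CDAHFD still called 0 of 10 targets, with Eda2r at -1.003 ± 0.347 and Phlda3 at -0.77 ± 0.22 on the log2 scale. The library left out was the highest of the 8 for both genes, so these fold changes had to fall without it. Over all fits of this comparison with 1 library left out, the lowest edgeR adjusted p was 0.327 for Eda2r and 0.211 for Phlda3. Heterozygous library 4 was highest of its 7 for 5 of 10 targets and for 22.3% of all tested genes, and wildtype chow library 5 was highest of its 5 for 6 of 10 targets and for 21.1% of all tested genes.

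Of the genes that act on p53, 11 were tested. In wildtype CDAHFD against chow 1 rose, the DNA damage kinase gene Chek2 (0.91 ± 0.19, edgeR adjusted p = 0.000933), and 3 fell, the deubiquitinase genes Usp28 (-0.45 ± 0.13) and Usp7 (-0.25 ± 0.07) and Trp53bp1, whose product binds p53 at broken DNA (-0.31 ± 0.11). Their median was -0.07, near the -0.01 of all genes, and the 4 of 11 called are near the 27.1% of all genes called in either direction.

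Of 40 other reported p53 targets that were tested, 15 rose, 4 fell and 21 did not pass in wildtype CDAHFD against chow. Their median was 0.30 on the log2 scale. In the same comparison 27.1% of all tested genes were called in either direction and 14.8% rose. Risers included Ckap2, a spindle protein gene (3.21 ± 0.50), Ptp4a3, a phosphatase gene (0.72 ± 0.11), and Pmaip1, which encodes the death factor Noxa (1.88 ± 0.32). All 16 tested cell division genes rose in this comparison too (median 2.05), and the part of cell division in the rise of Ckap2 was not tested. Pmaip1 had 1.11 to 2.92 CPM in homozygous, 1.73 to 3.52 in heterozygous, 1.67 to 3.89 in wildtype CDAHFD and 0.428 to 1.61 CPM in wildtype chow livers. The 4 that fell included Bbc3, the gene of the death factor Puma (-0.80), named after its value was seen. Between genotypes 0 of the 40 were called.

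**Figure D5:**
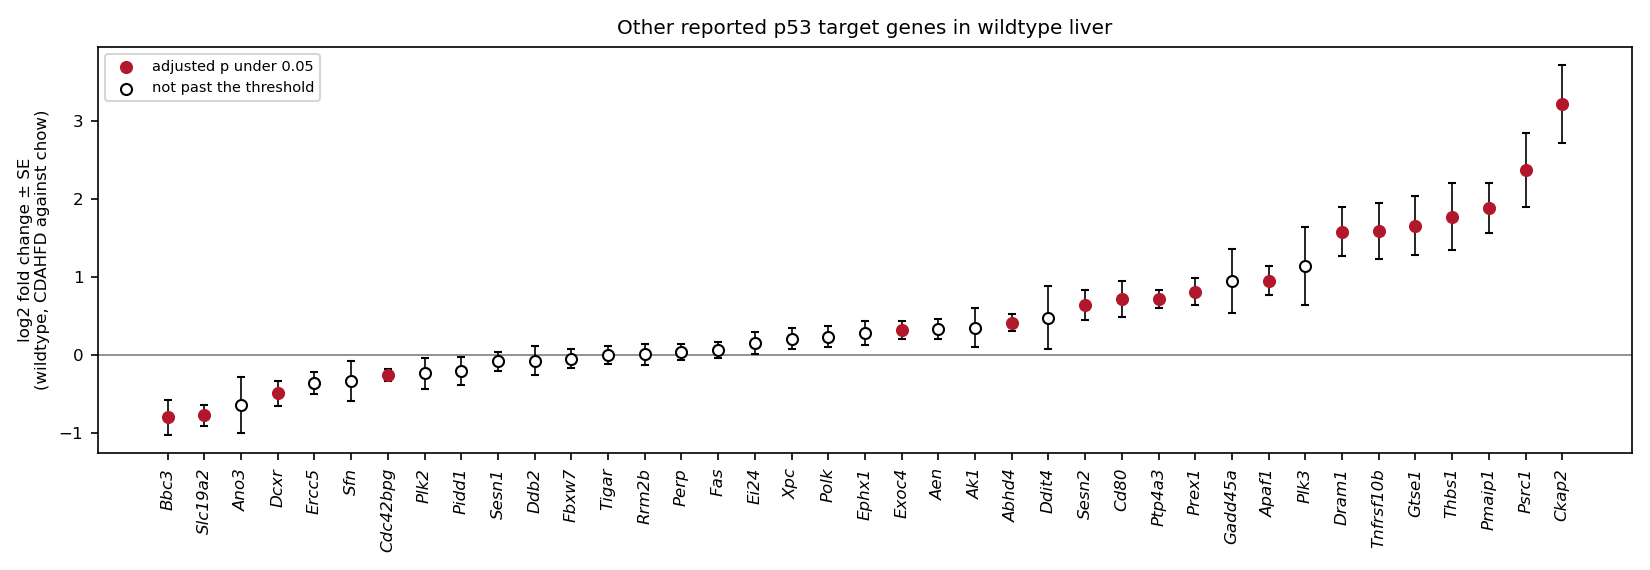
Log2 fold change with its SE (edgeR, wildtype CDAHFD against chow) of 39 of the 40 other reported p53 targets, ordered by value; filled points have an adjusted p under 0.05. There are 14 filled points above 0, up to Ckap2 at 3.21, and 4 below 0.

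Of 12 genes of the BCL2 family, which promote or block apoptosis with Bax, 9 rose and 0 fell in wildtype CDAHFD against chow, where 14.8% of all tested genes rose. Bcl2a1b (2.56 ± 0.35) and Bcl2a1d (2.42 ± 0.36) are near-identical copies that can share reads, so their separate values are uncertain; Bok, a relative of Bax, rose by 0.95 ± 0.17 and Bak1, its partner in the mitochondrial pore, by 0.59 ± 0.13. Bcl2a1b and Bcl2a1d are also expressed by white blood cells, and 11 of 12 macrophage markers rose in the same comparison. Of 5 other cyclin-dependent kinase inhibitor genes 2 rose, Cdkn3 (2.86 ± 0.44), which is itself expressed with cell division, and Cdkn2c (0.52 ± 0.15).

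All 16 tested cell division genes of the kind that p53 lowers through p21 rose in wildtype CDAHFD livers against chow, where 14.8% of all tested genes rose. The median of the 16 was 2.05 on the log2 scale. Among them were the mitotic cyclin genes Ccnb2 (2.53 ± 0.34) and Ccnb1 (2.97 ± 0.44), the survivin gene Birc5 (2.22 ± 0.33) and the proliferation marker gene Mki67 (2.41 ± 0.36). Cdkn1a rose in the same comparison. Their summed level was 65.1 to 163.8 CPM in homozygous, 56.8 to 178.9 in heterozygous, 78.6 to 176.7 in wildtype CDAHFD and 25.8 to 41.0 CPM in wildtype chow livers.

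Stress pathways that share targets with p53 also changed with the diet. Of 12 genes of the integrated stress response, in which eIF2 phosphorylation leads to the factor Atf4, 8 rose and 1 fell in wildtype livers, where 14.8% of all tested genes rose: the serine and asparagine synthesis genes Psat1 (2.28 ± 0.39) and Asns (1.34 ± 0.27), the stress cofactor gene Nupr1 (3.39 ± 0.66) and the pseudokinase gene Trib3 (1.85 ± 0.47) led the rises, and Atf4 transcript, named after its value was seen, fell (-0.51 ± 0.17, edgeR adjusted p = 0.0225). Of 19 immediate early and injury genes 12 rose and 0 fell, led by Lcn2, an iron-binding acute phase protein gene (4.09 ± 0.51), Sprr1a, a cornified envelope protein gene (5.58 ± 0.72), Atf3, a stress-induced factor of the ATF family (2.84 ± 0.50), and Jun (1.77 ± 0.34). Atf3 had 3.74 to 30.6 CPM in homozygous, 7.78 to 24.5 in heterozygous, 7.22 to 25.1 in wildtype CDAHFD and 1.51 to 2.44 CPM in wildtype chow livers, with no overlap of any CDAHFD liver with chow. Of all tested genes, 4.61% in homozygous, 7.58% in heterozygous and 7.95% in wildtype CDAHFD livers lay wholly above chow. Between genotypes 0 genes of these lists were called. In the comparisons with wildtype CDAHFD the lowest p was that of Lcn2 in homozygous livers, -1.01 ± 0.38 (edgeR adjusted p = 0.347). There 18 of 19 immediate early and injury genes were below 0 (median -0.35), and 4 had an unadjusted p under 0.05 (9.97% of all genes). Below 0 were also 18 of 19 in homozygous against heterozygous and 15 of 19 in heterozygous against wildtype CDAHFD livers. Of the integrated stress response genes 7 of 12 were below 0 in homozygous against wildtype CDAHFD.

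Of all tested genes outside the list, those whose log2 CPM over the 26 libraries followed the mean of the 10 standardised targets most closely were Ace, the angiotensin-converting enzyme gene (Pearson's r = 0.904), Arhgef2 (0.892), Syt12, a synaptotagmin gene (0.891), Atf3 (0.889) and Klf6, an injury-induced zinc finger factor gene (0.889). These coefficients describe 26 libraries that share the 4 groups and the scaling. Klf6 was among the 12 injury genes that rose in wildtype CDAHFD livers, by 1.21 ± 0.24 on the log2 scale (edgeR adjusted p = 0.000504).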

How the data were processed

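Total RNA from mouse liver was extracted with the RNeasy kit; the library kit was NEBNext Ultra II RNA (both per the labels' protocols). The authors deposited estimated counts per gene; the submitters' processing notes name cutadapt 3.5, Salmon 1.4.0 and builds GRCm39 and mm39. The sources used here do not give how transcripts became genes or whether strand was used.

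Columns were matched to libraries by name, with 0 left unused, and groups came from the sample titles. The labels do not state that each sample is a separate animal, so p-values rest on the spread between samples, which may be technical. After rounding to whole numbers, edgeR 4.0.16 (R 4.3.3) was run on the estimated counts (TMM, filterByExpr by group, robust quasi-likelihood F tests, Benjamini-Hochberg adjustment over all 17104 genes), with all 4 groups in 1 fit; the procedure was tested on simulated data. The SE is the absolute log2 fold change over the square root of F. Relations used log2 of CPM plus 0.5, and permutation tests used 1e+05 resamples where enumeration was too long. Alternatives were DESeq2 1.42.0, voom in limma 3.58.1, other scalings, no filter, a 2-group fit, the number series, a replicate block and leaving out each library. Symbols were matched by ID to GENCODE M21 (GRCm38) for 51475 of 55642 IDs. No library pair within a group looked like a duplicate (chi-square per degree of freedom 15.35 or higher over 74 pairs).

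The 10 targets and all gene lists were chosen with earlier results of these data known. The text names the 10 targets, Trp53, Mdm4 and Mtarc1, up to 4 called genes per list by lowest p (or, with 0 called, the gene of lowest p), and the 5 genes most like the targets' mean; any other gene is said to be chosen after its values were seen. One gene that this rule names is not reported here. Coordinates and promoter sequences are RefSeq's for GRCm38.p6, another build than that of the counts.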

Additional observations from a re-analysis of the deposited data

Results flagged for a closer look

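In 4 of the 40 sets of values (10 targets in 4 groups), the highest library lay farther from its neighbours than Dixon's 95% critical value allows. The rate of about 1 in 20 that chance gives holds for independent sets of normally distributed values. These sets are CPM without a log and share their libraries, so the count cannot be set against that rate. Homozygous library 4 accounted for 3 of them. It had 11.236 CPM of Phlda3, where the next of the 8 homozygous livers had 5.45 CPM, 5.9547 CPM of Eda2r, where the next had 2.35 CPM, and 70.535 CPM of Gdf15, where the next had 34.6 CPM. In the heterozygous group, library 7 had 4.5237 CPM of Eda2r and the next of the 7 livers had 2.61 CPM.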

How the results depend on the processing

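Counts of called targets stayed within 1.5 times of the reported ones under other size factors, raw totals, no filter, DESeq2, voom, a 2-group fit, the number series as a covariate and the replicate block, and no called fold change reversed. The exception was the 17-library number series alone, where 2 targets were called in wildtype CDAHFD against chow, against 5. Over all genes that series called 2264, against 4630. That series has fewer libraries, and in it 4 targets were still called for homozygous and 7 for heterozygous livers against chow. Over all genes it called 2953 and 4291 in those comparisons, where all libraries gave 3953 and 6361. The cause of the lower count of targets was not tested. Raw totals gave 7 for wildtype CDAHFD against chow, with Trp53inp1 and Zmat3 added. Calls over all genes rose as well, from 4630 with TMM scaling to 6072 with raw totals. Leaving out 1 library gave 4 to 6 called targets for wildtype CDAHFD against chow, 4 to 5 for homozygous and 7 to 7 for heterozygous livers against chow, and 0 to 0 for each comparison between genotypes and for the trend. Ccng1 was lost for wildtype CDAHFD against chow with voom, the 2-group fit (adjusted p = 0.0666) and the covariate, and was gained for homozygous livers against chow with DESeq2 (adjusted p = 0.0426) and raw totals (0.00269). Relations to Cdkn1a by Pearson's r numbered 9 of 9 with raw totals, 6 as deviations from genotype means, 4 with only the 9-library series and 0 with only the 17-library one; the cause was not tested. Mtarc1 in wildtype CDAHFD against chow differed by -0.38 log2 (exact permutation p = 0.0303), and by -0.15 with raw totals (exact permutation p = 0.221).

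Same-numbered samples deviated together in no comparison throughout (correlations of -0.44 to 0.39). In heterozygous against wildtype CDAHFD, 4 of 6 heterozygous samples correlated best with the wildtype sample of their own number. In each of the other comparisons 2 or 3 samples did so. These values do not settle whether the sample numbers pair the samples. With the numbers as a replicate block, 5 targets were called for wildtype CDAHFD against chow, 0 for each comparison between genotypes, 7 for heterozygous against chow and 3 for homozygous against chow, where Cdkn1a was at 1.26 (adjusted p = 0.0529; 0.00232 to 0.0529 over all alternatives but single libraries left out). Depth limits Eda2r most, with 2 to 14 counts per chow library. Over all genes, DESeq2 called 61 for homozygous and 2 for heterozygous against wildtype CDAHFD and 17 for homozygous against heterozygous, where edgeR called 1, 0 and 1, and the 17-library series alone called 2264 for wildtype CDAHFD against chow, where all libraries gave 4630. The replicate block called 2 genes for homozygous against wildtype CDAHFD, and the trend without a filter called 2.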
